A study of Mus musculus with 12 samples.

Results

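RNA from whole mouse kidney was compared between 3 libraries labelled as Cep120 knockout (KO) and 3 control libraries of the same line, which are 6 of the 12 libraries of the series. The members were taken from the sample labels. Cep120 KO 1 to 3 have titles that name hox, Cep120 and homo and the genotype Cep120 KO. Cep120 controls 1 to 3 have titles that name hox, Cep120 and het, while their genotype label is WT. The hox of the titles is read here as Hoxb7. All 6 kidneys were at postnatal day 15 (P15), and the other 6 libraries are Pkd1 KO and Pkd1 controls of the same age, used here for the shared estimate of spread and for the Pkd1 values given below. The labels give no strain, sex or Cre status of the controls. Whether each library is a different mouse is likewise unstated, so p-values measure the spread between libraries, which may be technical.

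Cep120 is a protein of the centriole that is needed to build new centrioles, and a centriole forms the base of the primary cilium. Hoxb7-Cre acts in the ureteric bud, the epithelium that branches into the collecting ducts, so most cells of a whole kidney lie outside its reach. Collecting ducts hold principal cells, which take up sodium and water, and intercalated cells, which move acid and base. Loss of centrioles or cilia in this epithelium is known for cysts and for scarring (fibrosis) of the tissue around them. According to the series' design text, the comparison was made to find pathways behind fibrotic and cystic disease after Cep120 loss.

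The 6 libraries held 24290824 to 28065418 estimated counts. Between 30321 and 32740 genes had reads in 5 of them, and 25665 in control 3. Controls 1 and 2 were the closest pair, with a chi-square per gene of 5.58 against 19.5 to 70.6 in the other 14 pairs, which is still above the sampling noise, so they were kept as 2 libraries. Xist, which coats the inactive X chromosome, was at 0.269, 0.325 and 184 CPM (counts scaled by library size) in KO 1, 2 and 3 and at 59.8, 128 and 141 CPM in controls 1, 2 and 3. The summed RNA of 4 Y-linked genes was at 108, 105 and 16.6 CPM in KO and at 28.3, 12.01 and 0 CPM in controls. KO 3 and controls 1 and 2 thus held RNA of both kinds, and KO 1 and KO 2 almost no Xist. KO 1 and KO 2 differ from all 3 controls in genotype and in Xist RNA at once, and in these 2 libraries their parts cannot be told apart.

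Cep120 itself (ENSMUSG00000048799) was measured first, since it checks the labels. It was at 16.6, 20.4 and 16.6 CPM in Cep120 KO 1, 2 and 3 and 16.2, 18.7 and 13.7 in controls 1, 2 and 3, a log2 fold change of 0.14 (SE 0.16) with overlapping groups. Its main transcript in the deposited table, Cep120-201, was at 20.0, 24.2 and 21.0 CPM in KO and 20.1, 23.6 and 17.5 CPM in controls. Whole-kidney RNA therefore does not check the labels, and every direction below rests on them alone. The labels do not name the exons removed, and reads from the remaining exons or from cells without Cre would still be counted. Pkd1, the polycystin-1 gene, was at 22.2, 26.3 and 21.1 CPM in Cep120 KO 1, 2 and 3 and 17.1, 24.1 and 18.5 in controls 1, 2 and 3. Hoxb7, whose promoter drives the Cre if hox is read rightly, was at 18.96 to 21.5 CPM in KO and 18.9 to 20.8 CPM in controls, which overlap.

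The labelled tissue was present in every library. On the deposited TPM scale, which also corrects for transcript length, Slc34a1, the proximal tubule phosphate transporter, was at 1475 to 1926 TPM in KO and 1277 to 1553 TPM in controls. Umod, uromodulin of the thick ascending limb, was at 699 to 862 and 771 to 790.3 TPM. Nphs1, nephrin of podocytes, was at 6.85 to 10.1 and 7.74 to 9.77 TPM, and Aqp2, the water channel of principal cells, at 258, 212 and 81.5 TPM in KO 1, 2 and 3 against 159 to 190.2 TPM in controls. Apart from Aqp2, these marker genes and Hoxb7 were chosen after their values were seen.

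No single gene passed the test between Cep120 KO and its controls, and most differences were small. Of 19890 genes tested, edgeR's quasi-likelihood test with Benjamini-Hochberg adjustment called 0 (0%), with a smallest adjusted p of 0.407. Its unadjusted p was under 0.05 for 1201 genes (6.04%), of which 653 (3.28%) were higher and 548 (2.76%) lower in KO. Limma voom called 0 and DESeq2 called 21 (0.106%). The median absolute log2 fold change was 0.20, and the fitted fold change was at least 2-fold higher for 841 genes and lower for 236. The log2 fold change was above 0 for 10266 genes (51.6%), and for 71.3% on the deposited log2 CPM scale, which puts the median of all genes at 0.15 in place of 0.01. All 3 KO libraries were above all 3 controls for 1719 genes (8.64%) and below them for 1567 (7.88%).

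The count of 0 depended on the filter and on single libraries. Without a filter on low counts edgeR called 344 genes, 171 higher and 173 lower, and 339 of these are genes that the filter keeps, and the cause was not tested. Without KO 2 it called 1 gene, the pseudogene-like Gm8615 (log2 fold change 3.72, edgeR adjusted p = 0.0174), at 10.5, 0.911 and 12.7 CPM in KO and 0.6298, 0.895 and 1.095 CPM in controls. Without KO 3 it called Xist and Aldh1a3, a retinoic acid synthesis enzyme (log2 fold change -1.94, edgeR adjusted p = 0.0100), both named after their values were seen. Aldh1a3 was at 6.12, 10.4 and 37.6 CPM in KO and 31.7, 34.6 and 28.8 CPM in controls, so KO 1 and KO 2 were low and KO 3 was at the level of the controls, the same libraries that were low and high in Xist.

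Among genes whose groups did not overlap, those with the smallest p values and higher KO levels include several metabolic and signalling genes. Acbd4, an acyl-CoA-binding protein that tethers peroxisomes to the endoplasmic reticulum, was at 47.6, 42.2 and 38.2 CPM in Cep120 KO 1, 2 and 3 and 25.7, 25.5 and 29.7 in controls 1, 2 and 3, a log2 fold change of 0.66 (SE 0.11). Ppp1r16b, a membrane-bound regulatory subunit of protein phosphatase 1, was at 91.4, 91.7 and 78.1 CPM in Cep120 KO 1, 2 and 3 and 55.3, 57.6 and 55.5 in controls 1, 2 and 3, a log2 fold change of 0.63 (SE 0.10). In both genes KO 3 was the lowest KO library, and it was still above every control. Mlxipl, the carbohydrate-responsive transcription factor ChREBP, was at 36.3, 26.6 and 31.4 CPM in Cep120 KO 1, 2 and 3 and 14.5, 18.3 and 16.6 in controls 1, 2 and 3, a log2 fold change of 0.93 (SE 0.19). Thpo encodes thrombopoietin, the platelet growth factor, and was at 2.88, 4.39 and 2.38 CPM in KO against 1.595, 1.26 and 1.501 CPM in controls. The other 8 of these 12 genes were the corepressor Cbfa2t2, the small GTPase regulator Arap3, the Ral activator Rgl2, the osmosensitive channel Tmem63a, the inositol pyrophosphate kinase Ppip5k1, the haem synthesis enzyme Ppox, the ubiquitin ligase Dtx3 and Txlng. Their log2 fold changes were 0.40 (Ppox) to 0.63 (Txlng), and the edgeR adjusted p of the 12 was 0.407 to 0.757.

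On the lower side stood genes of vesicle traffic, cell death and transcription, of which 11 of 12 are described. Rab5c, a GTPase of early endosomes, was at 68.1, 61.6 and 69.4 CPM in Cep120 KO 1, 2 and 3 and 109, 104 and 106 in controls 1, 2 and 3, a log2 fold change of -0.68 (SE 0.13), with the 3 KO libraries close to one another. Procr, the endothelial protein C receptor, was at 3.92, 4.101 and 5.22 CPM in KO and 7.47, 10.1 and 11.2 CPM in controls. Rbpj, the transcription factor that Notch receptors act through, was at 17.5, 19.2 and 18.3 CPM in KO and 21.5, 26.9 and 25.2 CPM in controls, a small gap but with no overlap. The other 8 of the 11 were the apoptosis effector Bak1, the Myc partner Max, the vesicle tethering subunit Trappc10, the histone chaperone Npm3, the amine oxidase Aoc3, the glycogen-targeting subunit Ppp1r3c, the lipase inhibitor G0s2 and Gatd3a. Their log2 fold changes ran from -1.01 (Npm3) to -0.58 (Max), and the edgeR adjusted p of the 11 was 0.516 to 0.757.

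**Figure D1:**
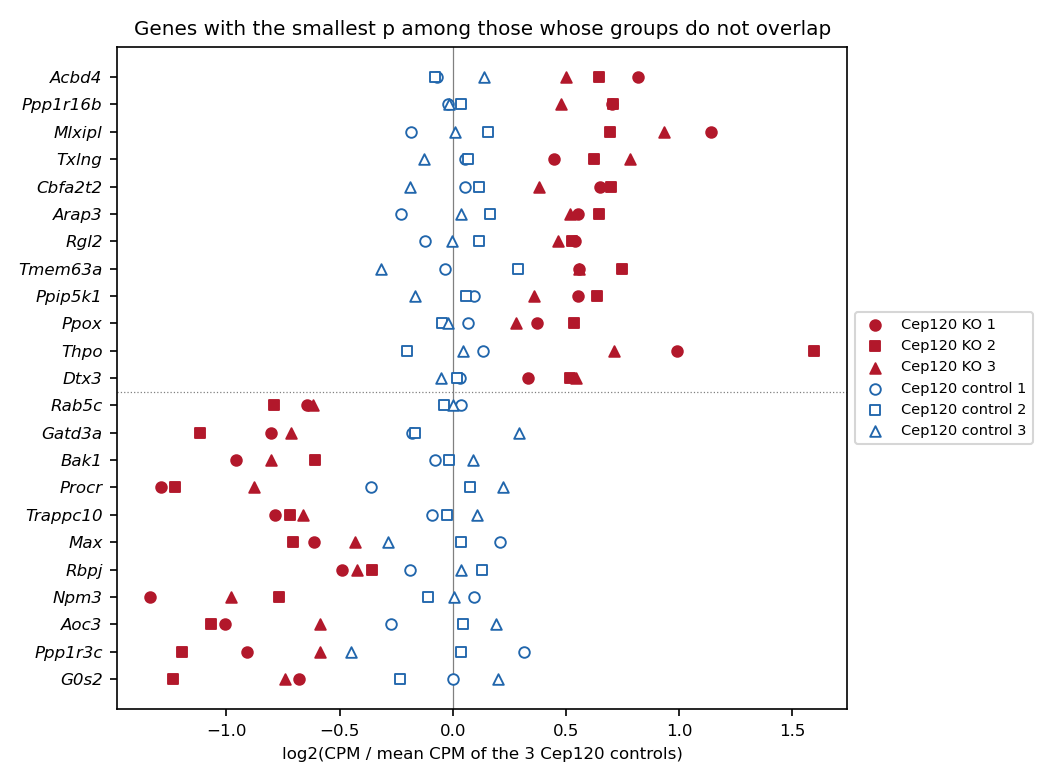
The x axis gives the log2 ratio of CPM in each library to the mean CPM of the 3 Cep120 controls, for the 12 higher and 11 of the 12 lower genes with the smallest p among those whose groups did not overlap. Filled red symbols are KO libraries and open blue symbols controls, with 1 shape per replicate number. Every KO symbol lies on the same side of all controls because non-overlap was part of how these genes were chosen.

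The 21 genes that DESeq2 called, 9 higher and 12 lower, include 10 of these 24. The others are Psap, which is abundant, and genes that are weakly expressed, cell-type restricted, clone-named or pseudogene-like. Psap, a lysosomal precursor protein and the most abundant of the 21, was at 801, 772 and 776 CPM in Cep120 KO 1, 2 and 3 and 985, 1133 and 942 in controls 1, 2 and 3. Cd8a, the coreceptor of cytotoxic T cells, was at 1.04, 0.651 and 1.06 CPM in KO and 3.95, 2.89 and 3.25 CPM in controls (log2 fold change -1.87, SE 0.38, DESeq2 adjusted p = 0.0245). Mb, myoglobin, was at 0, 0.195 and 0.248 CPM in KO and 1.51, 2.93 and 1.62 CPM in controls, and Alb, albumin, at 0.577, 0.814 and 0.3904 and 1.93, 7.0 and 1.83 CPM. The summed level of 11 skeletal muscle genes was 19.7, 21.1 and 19.4 CPM in KO and 20.5, 20.6 and 24.1 CPM in controls, and its part in the Mb result was not tested. Higher in KO were B3gnt3, a glycosyltransferase, at 4.77, 3.32 and 3.73 against 0.924, 0.326 and 0.892 CPM, and Krt17, a keratin, at 1.46, 14.4 and 0.319 against 0, 0.0814 and 0.0811 CPM. Krt17 thus rests mainly on KO 2. The remaining 5 are clone-named or pseudogene-like (Gm4737, Gm8615, Gm42716, Eif4a-ps4 and Ndufs5-ps), whose counts may be shared with parent genes and are uncertain.

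Collecting duct genes were mostly at lower levels in KO, and none passed the test. With hox read as Hoxb7, this is the lineage in which the Cre acts. Loop of Henle and proximal tubule genes were mostly lower as well, as given below. Of 16 principal cell genes 13 had a log2 fold change below 0, with a median of -0.16 where the median of all tested genes was 0.01, and 4 of 16 (25%) were below all controls in every KO library against 7.88% of all genes. Of 22 intercalated cell genes 19 were below 0, with a median of -0.34, and 10 of 22 (45.5%) were below all controls in every KO library. In bulk RNA, fewer cells of a type and less RNA per cell cannot be told apart.

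Scnn1b, a subunit of the epithelial sodium channel, was at 77.8, 68.9 and 67.6 CPM in Cep120 KO 1, 2 and 3 and 87.5, 87.4 and 91.3 in controls 1, 2 and 3. Fxyd4, an ion transport regulator of the collecting duct, was at 45.5, 30.5 and 58.8 CPM in KO and 77.3, 69.3 and 67.3 CPM in controls. Aqp4, a basolateral water channel, was at 19.96, 34.6 and 42.9 and 56.7, 62.9 and 46.2 CPM. In all 3 genes the groups did not overlap, with log2 fold changes of -0.31, -0.67 and -0.77 (SE 0.10, 0.23 and 0.34). Per library, the principal cell score (the average, over its genes, of the log2 CPM less that of the 3 controls) was -0.26, -0.22 and -0.23 in KO 1, 2 and 3 and 0.00, -0.01 and 0.02 in controls, so the 3 KO libraries were alike. Leaving out any 1 library gave a median of -0.24 to -0.15.

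Among intercalated cell genes, Foxi1, the transcription factor that specifies these cells, was at 41.5, 33.9 and 37.2 CPM in Cep120 KO 1, 2 and 3 and 50.2, 51.00 and 55.1 in controls 1, 2 and 3. Atp6v0a4 and Atp6v1b1 encode subunits of their proton pump. Atp6v0a4 was at 140.4, 90.1 and 111 CPM in KO and 171, 170.1 and 147 CPM in controls, and Atp6v1b1 at 42.3, 31.1 and 31.5 and 62.9, 58.6 and 40.6 CPM, where control 3 overlapped KO 1. Rhbg, an ammonia transporter, was at 46.4, 29.7 and 45.1 and 58.4, 52.5 and 75.9 CPM, and Slc4a1, the bicarbonate exchanger of acid-secreting cells, at 27.6, 13.3 and 24.9 and 32.2, 33.1 and 33.5 CPM. The log2 fold changes of the 5 were -0.63 (Atp6v1b1) to -0.47 (Foxi1), each at an edgeR adjusted p of 0.757. The score was -0.18, -0.58 and -0.20 in KO 1, 2 and 3 and -0.03, 0.00 and 0.03 in controls. KO 2 was lowest for 17 of the 22 genes, and without it the median was -0.20.

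In the rest of the nephron, the loop of Henle median was larger in size than that of principal cells, and the others were smaller. Median log2 fold changes were -0.20 for 18 loop of Henle genes and -0.12 for 30 proximal tubule genes. They were 0.06 for 15 distal convoluted tubule genes, 0.08 for 14 podocyte genes and -0.05 for 15 endothelial genes. Of the loop of Henle genes 16 were below 0, and 3 (16.7%) were below all controls in every KO library. Of the proximal tubule genes 24 were below 0, and 4 (13.3%) were below all controls in every KO library, against 7.88% of all genes. Aqp1, the water channel of proximal tubule and thin limb, was at 188, 103 and 159 CPM in Cep120 KO 1, 2 and 3 and 207, 207 and 247 in controls 1, 2 and 3. Slc12a3, the sodium chloride transporter of the distal convoluted tubule, was at 313, 279 and 294 CPM in KO and 231, 255 and 274 CPM in controls. The loop of Henle median was -0.06 without KO 2 and -0.12 without control 3, and the proximal tubule median -0.06 and -0.03.

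Genes of mitochondrial energy use were mostly at lower levels in KO, and none passed the test. All 19 nuclear respiratory chain genes had a log2 fold change below 0 (median -0.32), 9 (47.4%) were below all controls in every KO library against 7.88% of all genes, and KO 2 was lowest for 18. Sdhb, a subunit of succinate dehydrogenase, was at 842, 560.2 and 785 CPM in Cep120 KO 1, 2 and 3 and 909, 898 and 1146 in controls 1, 2 and 3, so control 3 was the highest and KO 2 the lowest. The median of the list was -0.22 without KO 2, -0.17 without control 3 and -0.08 without both. Of 18 fatty acid oxidation genes 17 were below 0 (median -0.22, and -0.09 without KO 2). Hadhb, of the mitochondrial trifunctional enzyme, was at 314, 269 and 351 CPM in KO and 392, 409 and 388 CPM in controls, and Eci2, an enoyl-CoA isomerase, at 157, 119 and 137 and 186, 171 and 167 CPM.

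**Figure D2:**
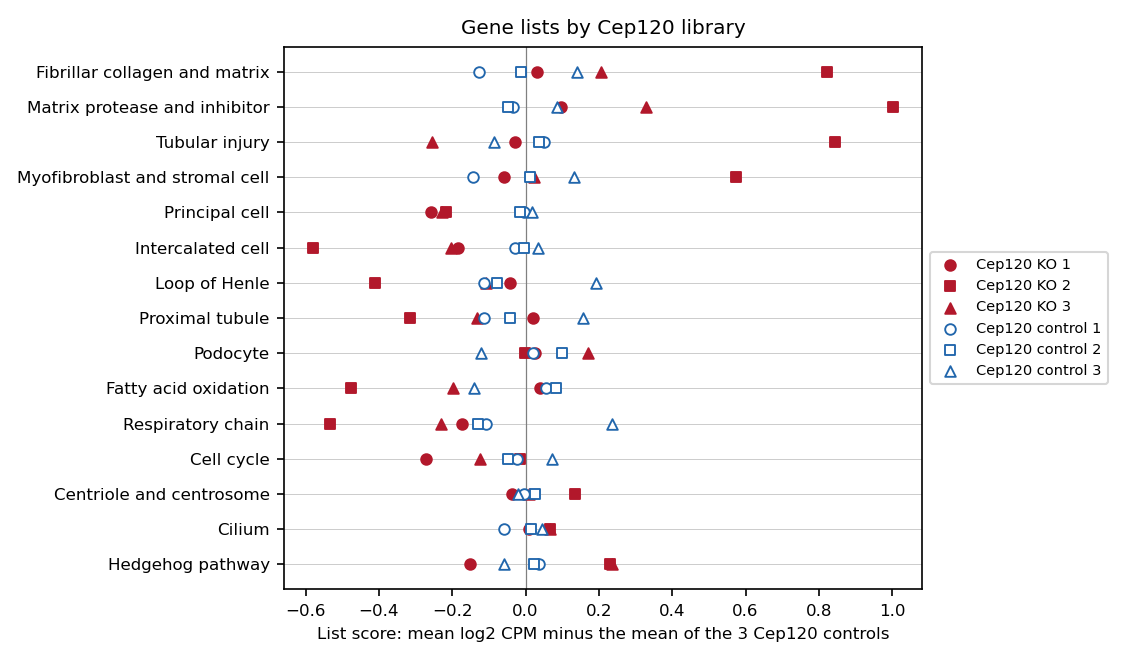
The x axis gives, for each of 15 gene lists, the average over its genes of the log2 CPM less that of the 3 Cep120 controls. Each symbol is 1 library (filled red KO, open blue control). Cep120 KO 2 stands to the right in the matrix and injury lists, at 0.82 and 0.85, and to the left in the intercalated cell list, at -0.58, while the 3 KO libraries lie together in the principal cell list.

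Centriole and cilium genes had medians near that of all genes, and cell cycle genes were mostly lower in KO. The median log2 fold change was 0.01 over 33 centriole and centrosome genes and 0.03 over 37 cilium genes, with 18 and 20 members above 0. Poc1a, a centriole wall protein, was at 13.5, 10.6 and 11.5 CPM in KO and 13.9, 14.2 and 17.6 CPM in controls, and Invs, inversin of the cilium base, at 7.92, 6.998 and 6.03 and 4.28, 4.395 and 5.15 CPM. Neither set of 6 values overlapped between groups. Of the 33 centriole and centrosome genes, 1 (3.03%) was above all controls in every KO library and 2 (6.06%) below them. Of the 37 cilium genes, 4 (10.8%) were above and 2 (5.41%) below. The shares of all genes were 8.64% and 7.88%, so these 2 lists did not stand out. The Hedgehog list, a pathway that signals through cilia, had a median of 0.04. Of 24 cell cycle genes 22 were below 0, with a median of -0.15, though none passed the test. Of the 24, 7 (29.2%) were below all controls in every KO library against 7.88% of all genes. The list score was -0.27, -0.01 and -0.12 in KO 1, 2 and 3 and -0.02, -0.05 and 0.07 in controls. KO 1 was lowest for 18 of the 24 genes, and the score of KO 2 lay within the range of the controls. Without KO 1 the median was -0.11. Ccnb1, the mitotic cyclin B1, was at 42.5, 56.1 and 53.8 CPM in KO and 64.2, 65.6 and 65.3 CPM in controls, while Mki67, a marker of dividing cells, overlapped at 34.4, 51.8 and 49.5 and 38.5, 43.7 and 53.02 CPM.

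Genes of matrix and scarring were mostly at higher levels in KO, none passed the test, and most of the difference lay in 1 library. Of 30 fibrillar collagen and matrix genes 26 had a log2 fold change above 0, the median was 0.39, and 4 (13.3%) were above all controls in every KO library against 8.64% of all genes. KO 2 was the highest library for 24 of the 30. The list score was 0.03, 0.82 and 0.21 in KO 1, 2 and 3 and -0.13, -0.01 and 0.14 in controls. Without KO 2 the median was 0.12, and the highest median with 1 library left out was 0.54, without KO 1. A term for Xist sets KO 1 and KO 2 apart. The contrast then compares KO 3 alone with the controls, and its median was 0.25.

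Col1a1, the main chain of type I collagen, was at 392, 804 and 353 CPM in Cep120 KO 1, 2 and 3 and 203, 268 and 344 in controls 1, 2 and 3, a log2 fold change of 0.93 (SE 0.36). Fn1, fibronectin, was at 197, 347 and 245 CPM in Cep120 KO 1, 2 and 3 and 139, 175 and 191 in controls 1, 2 and 3 (0.64, SE 0.26). For both genes every KO library was above every control, but KO 1 and KO 3 were nearer to the highest control than to KO 2. Acta2, the smooth muscle actin of myofibroblasts, was at 155, 483 and 208 CPM in Cep120 KO 1, 2 and 3 and 132, 140.1 and 212 in controls 1, 2 and 3, where KO 1 and KO 3 overlapped the controls. Pdgfrb, a receptor of pericytes and fibroblasts, was more even across the KO libraries, at 78.97, 83.7 and 68.8 CPM in KO and 54.4, 63.4 and 64.3 CPM in controls. The 18 myofibroblast and stromal genes had a median of 0.16, and of -0.02 without KO 2.

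Counting genes library by library shows how far KO 2 stood apart. A gene was counted for a library when its log2 CPM (prior count 2) was at least 1, that is 2-fold, above the highest or below the lowest of the other 5 Cep120 libraries. KO 2 had 127 genes above (0.639%) and 103 below (0.518%). KO 1 had 19 above (0.0955%) and 62 below (0.312%), and KO 3 had 28 above (0.141%) and 59 below (0.297%). Control 1 had 19 above (0.0955%) and 77 below (0.387%), and control 2 had 12 above (0.0603%) and 66 below (0.332%). Most of these were weak genes. Among the 13708 genes whose log2 CPM averaged 1 or more, KO 2 had 55 above (0.401%) and 35 below (0.255%). There KO 1 had 1 above (0.0073%) and 6 below (0.0438%), and KO 3 had 4 above (0.0292%) and 5 below (0.0365%). Control 1 had 0 above (0%) and 8 below (0.0584%), and control 2 had 0 above and 2 below (0.0146%). Control 3 also stood apart, with 31 above (0.226%) and 104 below (0.759%), and over all tested genes with 81 above (0.407%) and 1208 below (6.07%).

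**Figure D3:**
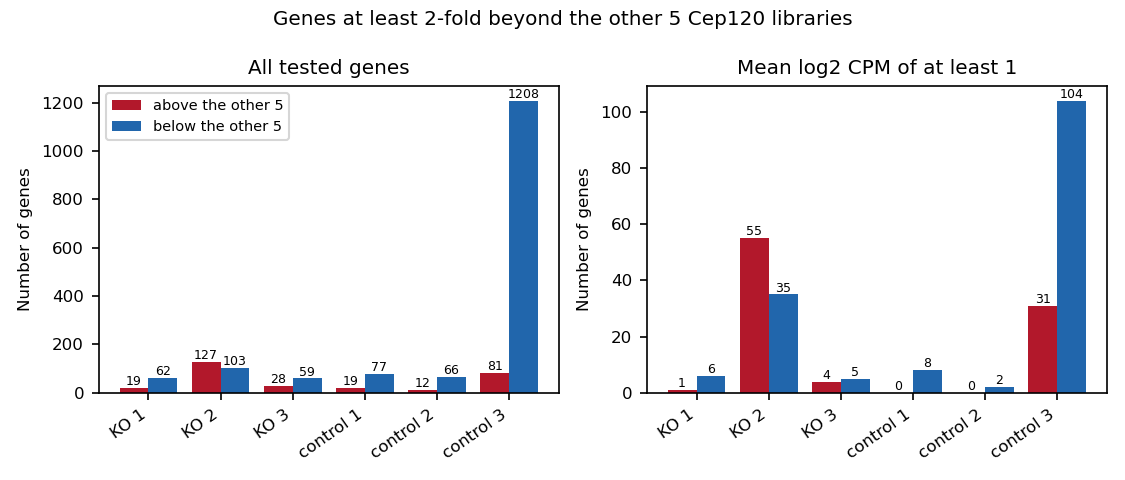
Bars give the number of genes at least 2-fold above (red) or below (blue) the other 5 Cep120 libraries, for all tested genes on the left and for genes whose log2 CPM averaged 1 or more on the right. Cep120 KO 2 has the most genes above in both panels (127 and 55), and control 3 the most below (1208 and 104).

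The genes highest in KO 2 include genes for acute-phase, complement, chemokine, keratin and matrix proteins. Serpina3n, an acute-phase protease inhibitor, was at 35.5 CPM in KO 2 and 0.0406 to 7.24 CPM in the other 5 libraries. Timp1, an inhibitor of matrix proteases that is induced in fibrosis, was at 2.69, 12.4 and 1.85 CPM in Cep120 KO 1, 2 and 3 and 1.64, 1.02 and 1.74 in controls 1, 2 and 3. Its groups did not overlap, though KO 3 was barely above the highest control. Lcn2, a marker of injured tubule, was at 97.7 CPM in KO 2 and 15.5 to 32.2 CPM elsewhere, and C3, the central complement protein, at 94.8 against 5.56 to 27.9 CPM. Ccl2, the chemokine that draws monocytes, was at 7.27, 26.2 and 2.98 CPM in Cep120 KO 1, 2 and 3 and 2.27, 2.401 and 1.22 in controls 1, 2 and 3. Here KO 1 was second highest and every KO library was above every control.

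Havcr1, known as KIM-1 and switched on in injured proximal tubule, was at 2.54, 12.7 and 0.248 CPM in Cep120 KO 1, 2 and 3 and 0.294, 0.895 and 0.568 in controls 1, 2 and 3, so KO 2 was high, KO 1 lower and KO 3 below all controls. Its log2 fold change was 3.14, and -1.23 with a term for Xist, which compares KO 3 alone with the controls. That of Ankrd1 was 1.84, and -0.31 with the same term. Sox9, a transcription factor of repairing tubule, was at 2.31, 6.05 and 1.31 CPM in KO and 1.64, 1.22 and 1.42 CPM in controls. Penk, proenkephalin, was at 248 CPM in KO 2 against 36.4 to 61.00 CPM, and Thbs2, a matricellular protein, at 145 against 32.8 to 45.4 CPM. These were the 2 most abundant of the 15 genes farthest above the other libraries. Also among the 15 were Ankrd1, a YAP target (14.5 against 1.14 to 3.65 CPM), Krt4, a keratin (11.4 against 1.34 to 2.66 CPM), Fgg, a fibrinogen chain (67.05 against 5.801 to 24.8 CPM), Aoc1, diamine oxidase (48.01 against 12.3 to 16.1 CPM), and Il1rn, the interleukin-1 receptor antagonist (6.802 against 1.18 to 2.27 CPM). The remaining 3 were Akr1c21, C7 and Kif1a. Serpina3n and Akr1c21 belong to families of close copies, so their counts are uncertain. Just inside the threshold lay Gm49542, Amigo3 and Prrxl1 (2.02-fold, 2.02-fold and 2.002-fold above the other 5), and just outside it Gm42639, Ednra and Sh2b2 (1.9996-fold, 1.99-fold and 1.99-fold).

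**Figure D4:**
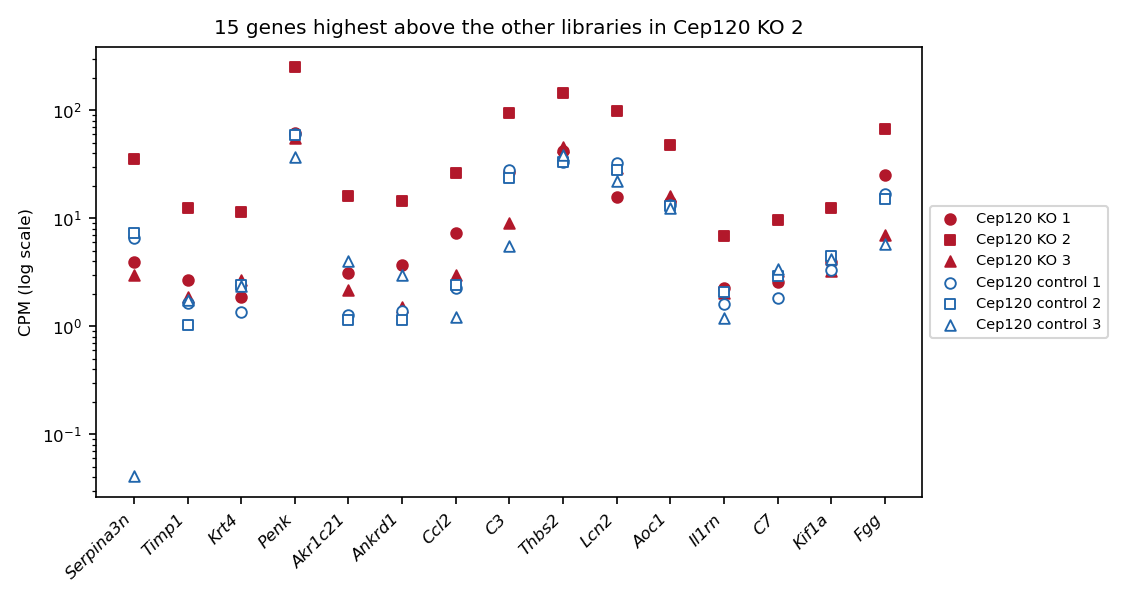
The y axis gives CPM on a log scale for the 15 named genes with the largest distance between Cep120 KO 2 and the highest of the other 5 libraries. Filled red squares (KO 2) lie above all other symbols for every gene because the genes were chosen that way, and the single low symbol is Serpina3n in control 3, at 0.0406 CPM.

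By list, the 127 genes included 5 of 30 matrix genes (Col1a1, Vcan, Thbs2, Tnc and Col12a1), 5 of 24 chemokine, cytokine and complement genes (C3, Ccl20, Cxcl1, Ccl2 and Cxcl2), 4 of 24 tubular injury genes (Sox9, C3, Lcn2 and Havcr1), 3 of 15 matrix protease and inhibitor genes (Timp1 and Mmp7 among them) and 3 of 18 stromal genes (Gli1, Thy1 and Acta2). These shares stand beside the 0.639% of all genes that the 127 make up. No macrophage, T and B cell or neutrophil gene was among them, but with lists of 7 to 18 genes that share would give fewer than 1. The lists were chosen with earlier results of these data known. A weak gene such as Mmp7 could also pass the filter on low counts through the Pkd1 libraries. The list shares are therefore a description and have no test. The tubular injury score was -0.03, 0.85 and -0.25 in KO 1, 2 and 3 and 0.05, 0.04 and -0.09 in controls. Without KO 2 the median log2 fold change of the 24 injury genes was -0.18 instead of 0.18. With a term for Xist, which compares KO 3 alone with the controls, it was -0.17.

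Promoter sequences of these genes were set beside the values, since the genes were high together in 1 library. The motif TGANTCA, which the AP-1 factors (Fos and Jun proteins) bind and which reads the same on both strands, was searched in the 250 bases before each RefSeq gene start (build GRCm38.p6). It was present for 9 of the 82 KO 2-high genes with a promoter in the table (10.98%), for 6 of 62 KO 2-low genes (9.677%) and for 811 of 13178 tested genes (6.154%). A match is a description of these letters, not of binding. The 4 sites shown were picked from the 9 genes for a role in inflammation or matrix turnover. Others had a site and are not shown, among them Fgb, a fibrinogen chain. The motif is in capitals with 11 bases on either side, 5′ to 3′ on the gene's strand.
Lif, a cytokine of the interleukin-6 family (chr11:4257329-4257357, plus strand, motif from 228 bases before the start): ccagtcagctgTGACTCAggccatagtgg
Il1rn (chr2:24336708-24336736, plus strand, 141 bases before the start): ttctgctagacTGAGTCAcgcctctggaa
Mmp7, a matrix protease (chr9:7692016-7692044, plus strand, 63 bases before the start): aagtgtgcaaaTGAGTCAcctatttccac
Mmp12, a macrophage elastase (chr9:7347319-7347347, plus strand, 44 bases before the start): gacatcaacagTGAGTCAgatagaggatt

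In these 4 genes the CPM of KO 2 stood against the range of the other 5 libraries as follows. Lif was at 1.66 against 0 to 0.378 CPM, and Mmp7 at 0.814 against 0 to 0.269 CPM. Mmp12 was at 3.12 against 0.284 to 1.26 CPM. All 3 were weak genes, and Il1rn, given above, was the most abundant of the 4.

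The genes high in KO 2 were also above the controls in the other KO libraries more often than genes in general. In KO 1, 59 of the 127 (46.5%) were above all 3 controls, against 27.0% of all tested genes, and in KO 3 46 of 127 (36.2%) were, against 26.2%. Their median log2 level was 0.29 above the control mean in KO 1 and 0.31 above it in KO 3, where all tested genes had medians of 0.02 and 0.02. For the 103 genes low in KO 2, 31 (30.1%) were below all controls in KO 1 and 31 (30.1%) in KO 3, against 26.6% and 25.1% of all genes. The 3 KO libraries share the same controls. A weak gene high in KO 2 could also pass the filter on low counts through KO 1 and KO 3, which can raise their shares. KO 1, like KO 2, held almost no Xist. These shares are therefore a description and have no test.

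The Pkd1 comparison shares no library with the Cep120 comparison, but the filter on low counts used all 12 libraries. A weak gene high in KO 2 alone could pass it through the Pkd1 libraries, which can raise the shares below. Without the filter 435 genes were high in KO 2, and their share was not counted. In the Pkd1 comparison edgeR called 73 of the 127 KO 2-high genes (57.5%) higher in Pkd1 KO, against 22.1% of all tested genes, and 5 lower. Of the 103 KO 2-low genes, it called 39 lower (37.9%), against 22.4% of all genes, and 6 higher. For genes high in KO 1 alone 2 of 19 (10.5%) were called higher in Pkd1 KO, and for those high in KO 3 alone 2 of 28 (7.14%). Timp1 had a log2 fold change of 3.27 in Pkd1 KO, Lcn2 one of 4.57 and Col12a1 one of 4.57, with edgeR adjusted p values of 0.00327, 0.000264 and 7.5e-05. Ccl2 and Havcr1 were not called there, at 0.78 and 1.92 (edgeR adjusted p = 0.4803 and 0.221). The Pkd1 groups also differed in Xist, at 0 to 0.169 CPM in Pkd1 KO and 49.97 to 136 CPM in Pkd1 controls, and its part in these counts was not tested.

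The genes lowest in KO 2 include genes of brown fat, of kidney hormone production and of tubular transport. Ucp1, the heat-producing uncoupler of brown fat, was at 0.654, 0.0651 and 136 CPM in Cep120 KO 1, 2 and 3 and 90.6, 132 and 193 in controls 1, 2 and 3, so KO 1 was low as well. Epo, erythropoietin, was at 7.15, 0.195 and 0.994 CPM in Cep120 KO 1, 2 and 3 and 8.23, 7.73 and 1.99 in controls 1, 2 and 3. Here KO 2, KO 3 and control 3 were all low and the groups overlapped. Serpina6, the corticosteroid-binding globulin, was at 5174, 1233 and 3499 CPM in Cep120 KO 1, 2 and 3 and 3728, 4053 and 6692 in controls 1, 2 and 3, and Egf, epidermal growth factor of the distal tubule, at 542, 157 and 394 CPM in Cep120 KO 1, 2 and 3 and 375, 471 and 392 in controls 1, 2 and 3. KO 2 was lowest for both, and the other 2 KO libraries lay within or beside the range of the controls. Slc6a12, the betaine transporter of the medulla, was at 2.54 CPM in KO 2 and 7.23 to 9.69 CPM elsewhere.

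KO 1 and KO 3 also stood apart in a few genes, not all of which reached 2-fold. In KO 1, Rab43 was at 17.9 CPM against 1.33 to 5.29 CPM in the other 5 libraries. Irf7, a regulator of interferon responses, was at 83.2 against 14.5 to 43.1 CPM. Ciita, the master activator of MHC class II, was at 18.7 against 2.11 to 10.8 CPM. Both were less than 2-fold above the next library, and for Ciita controls 1 and 2 came next, at 10.8 and 9.28 CPM. Upk2, a uroplakin of the urothelium, was low in KO 1 at 1.35 against 3.83 to 5.14 CPM. In KO 3, Angptl7, a secreted angiopoietin-like protein, was at 129 CPM against 6.96 to 30.2 CPM. Cyp24a1, the vitamin D-degrading enzyme, was at 34.4 against 8.12 to 19.7 CPM, less than 2-fold above the next library. Aqp2 was low in KO 3, at 74.6 CPM against 166 to 255 CPM elsewhere, although the principal cell score of KO 3 was like that of the other KO libraries.

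Over all 13708 better expressed genes, the KO libraries did not form a tight group. The root mean square log2 difference was 0.47 between KO 1 and KO 2, 0.44 between KO 1 and KO 3 and 0.42 between KO 2 and KO 3. KO 1 was closer to control 1 (0.39) and control 2 (0.37) than to either other KO library. The same held for KO 3, at 0.39 from control 1 and 0.35 from control 2. Control 3 was at 0.53 to 0.54 from controls 1 and 2, which were at 0.24 from each other. Control 3 was high in Cep85, a centrosome protein (69.6 CPM against 18.1 to 23.5 CPM elsewhere) and in A1cf, an RNA editing cofactor (34.5 against 8.19 to 10.8 CPM), and low in Abhd1 (2.47 against 37.1 to 68.04 CPM).

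Immune genes divided the libraries across the genotypes. The summed level of 7 MHC class II genes, the antigen-presenting proteins of macrophages, dendritic cells and B cells, was 4893, 828 and 777 CPM in KO 1, 2 and 3 and 5061, 5022 and 757 CPM in controls 1, 2 and 3. KO 1 was thus at the level of controls 1 and 2, and KO 2 and KO 3 at that of control 3. Cd74, the invariant chain and the most abundant of the 7, was at 2891, 529 and 444 CPM in Cep120 KO 1, 2 and 3 and 3165, 3216 and 404 in controls 1, 2 and 3. The 18 T and B cell genes summed to 75.1, 37.7 and 26.8 CPM in KO and 87.1, 84.00 and 28.9 CPM in controls, the same split of libraries. Of these 18 genes 17 had a log2 fold change below 0 (median -0.60), and 2 (11.1%) were below all controls in every KO library, a share near the 7.88% of all genes. The median was -1.24 without KO 1 and -0.40 without KO 3. With a term for Xist, which compares KO 3 alone with the controls, it was -1.62. Cd8a, given above, is on this list and was as low in KO 1 as in KO 3.

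Macrophage genes did not follow the order of MHC class II in KO 2. The 18 genes summed to 450.1, 457 and 245 CPM in KO and 489, 471 and 188 CPM in controls, so KO 2 was at the level of KO 1 and of controls 1 and 2. Cd14, a receptor for bacterial lipid, was at 32.2, 63.9 and 21.1 CPM in KO and 25.9, 23.04 and 9.899 CPM in controls. Mrc1, the mannose receptor, was at 12.6, 23.7 and 10.1 CPM in KO and 17.4, 13.3 and 4.95 CPM in controls. Both were highest in KO 2, which was the highest library for 7 of the 18 genes. Mpeg1, Aif1 and Ms4a7 were instead lower in KO 2 than the mean log2 level of the other 5 libraries. Interferon-stimulated genes were lowest in KO 2, with summed levels of 806, 252 and 371 CPM in KO and 613, 559.6 and 347 CPM in controls. None of these groups separates KO from control, and the parts that genotype, sex-linked RNA and tissue sampling play in them were not tested.

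Genes particular to fat were close to 0 in KO 1 and KO 2. The 17 adipose genes tested summed to 582, 376 and 1092 CPM in KO and 1019, 1212 and 1372 CPM in controls, and their score was -3.04, -3.18 and -0.16 in KO and -0.33, 0.13 and 0.20 in controls. Adipoq, the fat cell hormone adiponectin, was at 0, 0.0325 and 12.4 CPM in Cep120 KO 1, 2 and 3 and 10.2, 15.6 and 18.8 in controls 1, 2 and 3, and Cfd, adipsin, at 0.154, 0.195 and 65.2 CPM in Cep120 KO 1, 2 and 3 and 74.8, 97.3 and 81.99 in controls 1, 2 and 3. KO 3 was within or near the range of the controls in both, and 2 of the 17 genes were at 0 in KO 1. KO 1 and KO 2 are the libraries without Xist RNA, and fat attached to the kidney was not recorded in the labels, so the part of dissection was not tested.

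**Figure D5:**
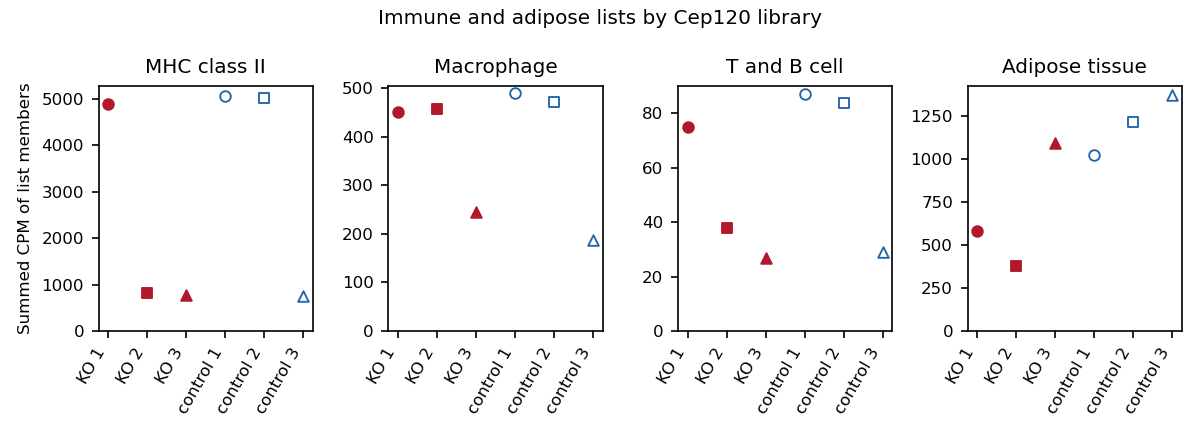
The y axis gives the summed CPM of the members of 4 lists, and the x axis the 6 Cep120 libraries (filled red KO, open blue control). MHC class II and T and B cell genes are high in KO 1 and controls 1 and 2 and low in the other 3 libraries, macrophage genes are also high in KO 2, and adipose genes are lowest in KO 1 and KO 2.

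The transcript table gave a few differences that gene totals did not show. It holds 70.6% to 72.2% as many counts as the gene table in the Cep120 libraries. Of 40007 transcripts tested, edgeR called 5 (0.0125%), 3 higher (0.0075%) and 2 lower (0.005%), while DESeq2 called 208, these 5 among them. Each was at 0 in all 3 libraries of 1 group, and folds are therefore bounds against a floor of 3 counts over that group. The unadjusted p was under 0.05 for 2336 transcripts (5.84%), and all 3 KO libraries were above all controls for 3813 (9.53%) and below them for 2825 (7.06%). Of the tested transcripts, 117 were at 0 in all 3 controls and above 0 in all 3 KO libraries, and 63 the reverse.

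Rorb-203, of a retinoid-related orphan receptor, was at 2.95, 2.92 and 3.69 CPM in KO and 0 in every control, at least 55.3-fold higher (edgeR adjusted p = 0.00564). Mcf2l-210, of a small GTPase activator, was at 2.32, 5.11 and 4.13 CPM in KO and 0 in every control, at least 68.2-fold higher (edgeR adjusted p = 0.0492). Lrig3-206, of a membrane protein that modulates growth factor receptors, was at 1.42, 1.12 and 1.82 CPM in KO and 0 in every control, at least 25.1-fold higher (edgeR adjusted p = 0.0284). The Pkd1 control libraries of the same age were not at 0 for these 3 transcripts, at 1.07 to 1.84, 1.05 to 3.86 and 1.27 to 2.20 CPM.

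Dnajb12-202, of a chaperone of the endoplasmic reticulum, was at 0 in every KO library and at 4.89, 4.42 and 6.03 CPM in controls, at least 105-fold lower (edgeR adjusted p = 0.0137). Qpct-203, of an enzyme that modifies peptide ends, was at 0 in KO and at 2.27, 1.30 and 3.84 CPM in controls, at least 50.8-fold lower (edgeR adjusted p = 0.0284). At gene level none of the 5 was called, with log2 fold changes of 0.60 (SE 0.40) for Rorb, 0.21 (SE 0.16) for Mcf2l, 0.23 (SE 0.25) for Lrig3, -0.06 (SE 0.12) for Dnajb12 and -0.36 (SE 0.20) for Qpct. Estimated counts divide reads among transcripts that share exons, so a transcript at 0 can be a choice of the estimate as well as an absence. Leaving out 1 library left 1 to 4 of the 5 calls, with 1 left without KO 1 or without control 1.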

How the data were processed

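RNA of 12 whole-kidney libraries (4 groups of 3, 6 of the Cep120 line) was analysed from the deposited tables. Per the labels' protocols, kidneys were ground in liquid nitrogen and cDNA was made with a SMARTer kit. The submitters' processing notes name STAR 2.5.1a, featureCounts 1.4.6-p5, Salmon 0.8.2 and mm9, without saying which made which table, and strand use is not stated. The authors deposited estimated counts per gene and transcript (expected counts, not all whole), TPM and moderated log2 CPM. Repeated lines (287 of 55774 in the gene table) were dropped and counts rounded.

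Genes were filtered by filterByExpr, scaled by TMM and fitted with edgeR 4.0.16 (R 4.3.3) over 12 libraries, with Benjamini-Hochberg adjusted p at 0.05. The standard error is the log2 fold change divided by the root of the test's F. CPM are TMM-scaled. Totals of 24290824 to 28065418 limit weak genes, for counting error only. Alternatives used DESeq2 1.42.0, limma 3.58.1, other scalings, filters and terms, and left-out libraries. Code was tested on simulated data.

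Members and 38 gene lists were chosen with earlier results of these data known. Named genes were the 12 higher and 12 lower with the smallest p among separated genes, the genes farthest above or below in each library (15 and 10 in KO 2, 5 and 5 elsewhere), list members by p or by distance of KO 2 (4 each), DESeq2 calls and called transcripts. Clone-named, immunoglobulin, mitochondrial and sex-linked genes were left out of that rule. Genes outside the rule (Aldh1a3, Xist, Gfra1, Ltbp2, tissue markers, promoter and threshold examples, and some listed members) were chosen after their values were seen. Promoters are from RefSeq (GRCm38.p6). A few genes that the rule yields are not reported here. Other deposited tables were not used here.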

Additional observations from a re-analysis of the deposited data

How the results depend on the processing

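The count of 0 genes stayed at 0 with RLE or upper quartile scaling, a filter of 5 CPM, voom or the 6 libraries alone. It also stayed at 0 with the replicate block, a term for detected genes, controls 1 and 2 summed, and the deposited log2 CPM. It was 344 with no filter (339 of them kept by the filter, the cause was not tested), 21 with DESeq2 and 0 to 2 with 1 library left out. Non-overlapping genes higher in KO numbered 2601 with no filter, 1140 at 5 CPM, 2412 to 3290 with 1 library left out and 3905 without both KO 2 and control 3 (an alternative chosen after seeing the data). Lower ones numbered 911 at 5 CPM, 2232 to 3059 and 3686. Fewer libraries make overlap rarer by construction.

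Genes at least 2-fold above the others in KO 2 numbered 435 with no filter, 73 at 5 CPM, 13 at 4-fold and 163 to 198 with 1 other library left out (chosen after seeing the data). Those below numbered 159, 28, 9 and 134 to 206. Transcript calls were 208 with DESeq2, 0 under the replicate block and 1 to 16 with 1 library left out. KO and control libraries share only a number: deviations of same-numbered libraries correlated at 0.21, -0.05 and 0.17, so they were not treated as pairs.

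Of 63 fold changes followed, 60 kept their direction in every alternative run (up to 19). Havcr1 turned to -1.23 and Ankrd1 to -0.31 with a term for Xist, which compares KO 3 alone with the controls. Cep120 turned to -0.069 without both KO 2 and control 3. Of 38 list medians, 16 kept their sign in all 19 alternatives. Groups of 3 limit every test, and weak genes are limited further by counting error.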

Other observations

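Several other gene groups were measured, and no member passed edgeR's test. Of 14 YAP and TAZ target genes, which respond to stretch and injury, 9 had a log2 fold change above 0 (median 0.17, and 0.09 without KO 2). Axl, a receptor kinase, was at 41.2, 51.6 and 35.1 CPM in Cep120 KO 1, 2 and 3 and 31.5, 31.9 and 31.2 in controls 1, 2 and 3, with every KO library above every control, while Ccn1, a secreted target, was at 35.04, 91.8 and 49.1 CPM in KO and 37.5, 42.1 and 29.5 CPM in controls and was high mainly in KO 2. Of 16 TGF-beta and BMP pathway genes 11 were above 0 (median 0.20, 0.09 without KO 2 and 0.00 with a term for Xist). A term for Xist compares KO 3 alone with the controls. Ltbp2, a binding partner of latent TGF-beta, was at 1.15, 5.92 and 1.24 CPM in KO and 0.588, 1.02 and 0.771 CPM in controls. Of 15 immediate early genes 12 were above 0 (median 0.21, 0.02 without KO 2 and -0.07 with a term for Xist).

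Renin and angiotensin genes were below 0 for 9 of 10 (median -0.30). Ren1, renin, was at 767, 351 and 766 CPM in Cep120 KO 1, 2 and 3 and 1249, 1202 and 644 in controls 1, 2 and 3, so KO 2 was lowest and control 3 lay among the KO values. Heat shock and unfolded protein genes were below 0 for 11 of 12 (median -0.24, and -0.15 without control 3), and their score was -0.20, -0.29 and -0.24 in KO 1, 2 and 3 and -0.05, -0.03 and 0.07 in controls, with no overlap between groups. Hspa1a, an inducible heat shock protein, was at 12.2, 7.68 and 9.26 CPM in KO and 14.2, 12.9 and 16.3 CPM in controls. Hspa1a has a near-identical copy, Hspa1b, so how reads divide between them is uncertain.

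Of developmental genes, 14 ureteric bud tip genes had a median of -0.09. Of the 14, 1 (7.14%) was above all controls in every KO library and 1 (7.14%) below them, near the 8.64% and 7.88% of all genes. The higher one was Etv5, a transcription factor downstream of the GDNF receptor Ret, at 14.6, 17.1 and 15.5 against 11.7, 11.97 and 9.29 CPM. The lower one was Gfra1, the co-receptor of Ret, at 1.65, 1.11 and 0.994 against 2.23, 1.87 and 1.66 CPM. Gfra1 was a weak gene, and KO 1 was barely below control 3. Medians near 0 were found for Wnt targets (-0.04), the Notch pathway (0.05), p53 targets (0.05), nephron progenitors (-0.09), red blood cells (-0.05), urothelium (-0.01), neutrophils (-0.06), skeletal muscle (-0.10), adrenal (0.11) and interferon-stimulated genes (-0.09). The median of matrix proteases and inhibitors was 0.27, and 0.06 without KO 2. Chemokine, cytokine and complement genes had a median of 0.32, which was 0.06 without KO 1 and -0.01 without KO 2. It was -0.20 with a term for Xist, which compares KO 3 alone with the controls. With 1 library left out, the median of macrophage genes (0.08) ran from -0.22 to 0.26 and that of MHC class II genes (-0.58) from -1.88, without KO 1, to -0.17, without KO 3.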
